A study of Drosophila melanogaster with 6 samples.

Results

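The 10 genes described here belong to the JAK-STAT signalling pathway of the testis stem cell niche. They were chosen by name, as ligand, receptor, kinase, inhibitor and target genes of the pathway, and all 10 were found among the 17559 genes counted. The testes came from adult male flies aged 3 to 5 days, from crosses made at 28 °C. The 3 control samples carried actin5C-Gal4 after a cross to w1118, a strain with white eyes, and the 3 overexpression samples carried actin5C-Gal4 with UAS-miR-2b-1. GAL4 is a yeast activator that switches on a UAS transgene, so that all 6 samples carried the driver and the transgene alone was meant to differ. The Act5C promoter drives GAL4 broadly and not in the niche alone, and the methods name a UASp transgene stock kept over a balancer chromosome. The paper's description of the data names OreR as the control parent, while its methods and the labels name w1118. Parental strain and transgene therefore differ between the same samples and cannot be told apart. Each sample was a pool of whole testes, and nothing says whether the pools came from separate crosses, so p-values measure the spread between these pools.

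In the Drosophila testis, a small cluster of somatic cells at the tip, the hub, secretes Unpaired ligands. The ligands bind the receptor Domeless on the adjoining germline stem cells and cyst stem cells, the receptor activates the Janus kinase Hopscotch, and the kinase phosphorylates the transcription factor Stat92E, which enters the nucleus. The pathway is known for keeping cyst stem cells in the niche, partly through zfh1 and chinmo, and for holding germline stem cells to the hub, while Socs36E is both its target and its inhibitor.

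The total count on genes was between 18047619 and 27789620 per library. Levels are given as CPM, counts per 1000000 reads counted, with TMM scaling, and a mean is followed by its SD over 3 libraries. Values per library are listed in the order of replicates 1, 2 and 3, SE is the standard error, and adjusted p-values follow Benjamini and Hochberg. The libraries had the RNA of late male germ cells, since the spermatid genes Mst87F and dj had 2234 to 3383 CPM and 1905 to 3228 CPM. By group, dj had 2371 to 3228 CPM in the control and 1905 to 2352 CPM under overexpression, without overlap. Mst87F had 3053 to 3383 CPM and 2234 to 3222 CPM, with overlap. The summed level of 8 spermatocyte and spermatid genes was 7056 to 7676 CPM in the control and 5657 to 6856 CPM under overexpression. These sums did not overlap. Most of each sum came from Mst87F, dj and bol, so it says little about the other genes of the list. Of the 8 genes, 0 were called with edgeR and 4 had an unadjusted p under 0.05, beside 14.7% of all genes. The log2 fold changes were positive for 3 of the 8, namely aly (0.39), sa (0.26) and fzo (0.43). RNA from other tissues differed between libraries. For 31 genes of the accessory gland and the ejaculatory duct, 1 without a count in any library, the summed level was 201 to 9542 CPM in the control and 444 to 10710 CPM under overexpression, and 0 were called with edgeR and 0 had an unadjusted p under 0.05. In 11 muscle genes the summed level was at least 1099 CPM in each control library and 809 to 922 CPM under overexpression. Most of each sum came from Act87E, which was not called (log2 fold change -0.15). Of the 11, 4 fell, beside 1.51% of all genes tested. These were Mhc, Mlc2, Mlc1 and TpnC47D, with log2 fold changes of -0.93, -1.35, -1.77 and -1.70 (edgeR adjusted p = 0.00470, 0.0221, 0.0106 and 0.000490). Because whole testes were sequenced, fewer cells of a type and less RNA per cell cannot be told apart in any value below.

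Expression of the pathway was detected from ligand to target in all 6 libraries. Per kilobase of exon, Ptp61F had the highest level, at 22.2 CPM per kb over the 6 libraries. A group of 5 genes followed, with chinmo at 7.67, upd1 at 7.61, Socs36E at 7.36, Stat92E at 6.09 and dome at 5.79 CPM per kb. Each of these neighbours overlapped in range with the next, so their order is not resolved by the spread between libraries. The kinase gene hop (1.87 CPM per kb) and the target gene zfh1 overlapped with each other and lay below that group without overlap. The ligand genes upd2 (0.551 CPM per kb) and upd3 (0.395 CPM per kb) were the lowest. Without scaling by length, upd1 moved from place 3 to place 6, and Stat92E from place 5 to place 3.

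**Figure D1:**
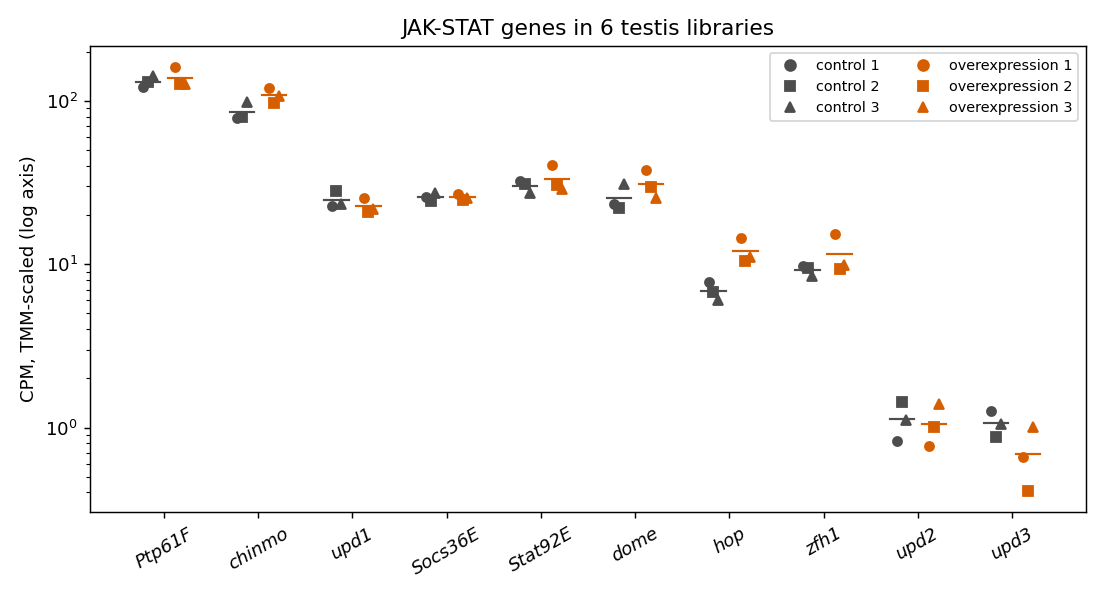
TMM-scaled CPM of the 10 genes on a log axis, in order of their level per kilobase of exon. Each point is 1 library and each line the mean of 3 libraries. The points of hop under overexpression (10.5 to 14.5 CPM) all lie above those of the control (6.02 to 7.80 CPM), while the groups overlap for the other 9 genes.

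Overexpression and control were compared with edgeR's quasi-likelihood test on all genes, at a Benjamini-Hochberg adjusted p under 0.05. Of the 10 JAK-STAT genes, 1 was called, the kinase gene hop, which rose. Among all genes tested, 2.81% were called in either direction, 1.29% as higher and 1.51% as lower, and 3.87% were called among those that passed edgeR's filterByExpr, as all 10 did. With 10 genes, 1 call is too few to be read as a share above this background. No other gene of the 10 passed the test in either direction, and at an unadjusted p under 0.05 there were 2 genes, hop and chinmo, both higher, beside 14.7% of all genes. The groups did not overlap for 1 of the 10 genes, hop, while 14.3% of the 12441 genes that passed the filter were higher without overlap and 11.1% lower. The median log2 fold change of the 10 genes was 0.11, beside 0.01 for all genes that passed that filter. Of the 10, 6 were positive, beside 51.6% of all genes that passed the filter.

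The ligand genes lie together on the X chromosome, within 68.6 kb (dm6 coordinates of the BDGP6 assembly). The gene upd1 (FBgn0004956, X, 18305354 to 18309291, minus strand) encodes the ligand made by the hub. It had 22.8, 27.9 and 23.6 CPM in the control libraries, and 25.6, 20.9 and 21.9 CPM under overexpression. The groups overlapped, with a log2 fold change of -0.12 (SE 0.165, adjusted p = 0.856 from edgeR) and a 95% interval of 0.723-fold to 1.17-fold.

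The other ligands were scarce. The gene upd2 (FBgn0030904, X, 18240654 to 18243284, minus strand), best known as a signal from the fat body, had 15, 28 and 19 counts in the control libraries, and 20, 22 and 40 counts in the overexpression replicates. The gene upd3 (FBgn0053542, X, 18277233 to 18284596, plus strand), a cytokine of hemocytes and of damaged gut, had 23, 17 and 18 counts in the control, and 17, 9 and 29 counts under overexpression. Counting error alone was wide at this depth, as the 9 counts of upd3 in overexpression replicate 2 carry an exact 95% Poisson interval of 4.12 to 17.1. The log2 fold changes were -0.09 for upd2 (95% interval -0.94 to 0.76) and -0.60 for upd3 (95% interval -1.55 to 0.34), and both intervals include 0. Of 8 hemocyte markers 0 were called with edgeR and 1, NimC1, had an unadjusted p under 0.05, and their summed level was 45.7 to 48.9 CPM in the control and 44.9 to 54.9 CPM under overexpression. Among them, crq had 16.2 to 23.9 CPM and srp 10.2 to 13.2 CPM, while NimC1 and He had at most 0.439 CPM and 0.0584 CPM.

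Within the ligands, upd1 took 90.1% to 94.7% of the counts of the 3 genes in the 6 libraries. The lowest share was in overexpression replicate 3 (95% Wilson interval 87.6% to 92.1%, 696 counts) and the highest in overexpression replicate 1 (92.8% to 96.1%, 700 counts), so both extremes were in the same group. Per kilobase of exon the share was 85.8% to 92.3%. These intervals cover counting error only.

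The receptor gene dome (FBgn0043903, X, 19676061 to 19683518, minus strand) had 23.4, 21.9 and 31.1 CPM in the control libraries, and 38.0, 29.5 and 25.5 CPM under overexpression. Control replicate 3 lay above the overexpression replicates 2 and 3. The log2 fold change was 0.28 (SE 0.187, adjusted p = 0.556 from edgeR).

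The kinase gene hop (FBgn0004864, X, 11360930 to 11368098, minus strand) encodes the only Janus kinase of the fly. It had 7.80, 6.78 and 6.02 CPM in the control libraries, and 14.5, 10.5 and 11.0 CPM under overexpression. All overexpression libraries were above all control libraries. These levels stood on 103 to 142 counts per library in the control and 231 to 375 under overexpression. From 6.87 ± 0.892 CPM (SD, n = 3) to 12.0 ± 2.14 CPM (SD, n = 3), hop rose by a log2 fold change of 0.80 (SE 0.199, adjusted p = 0.0351 from edgeR), which is 1.75-fold with a 95% interval of 1.31-fold to 2.34-fold. By p-value it ranked 421 of 17559 genes.

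The call of hop was lost without any 1 of 4 libraries. Its edgeR adjusted p was 0.248 without overexpression replicate 1, 0.179 without control replicate 2, 0.0982 without overexpression replicate 2 and 0.0963 without control replicate 3. It was also lost with edgeR's newer quasi-likelihood method (adjusted p = 0.0598) and with a prior that was not robust (0.107), while the direction was kept in each fit run, with log2 fold changes from 0.65 to 0.91.

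**Figure D2:**
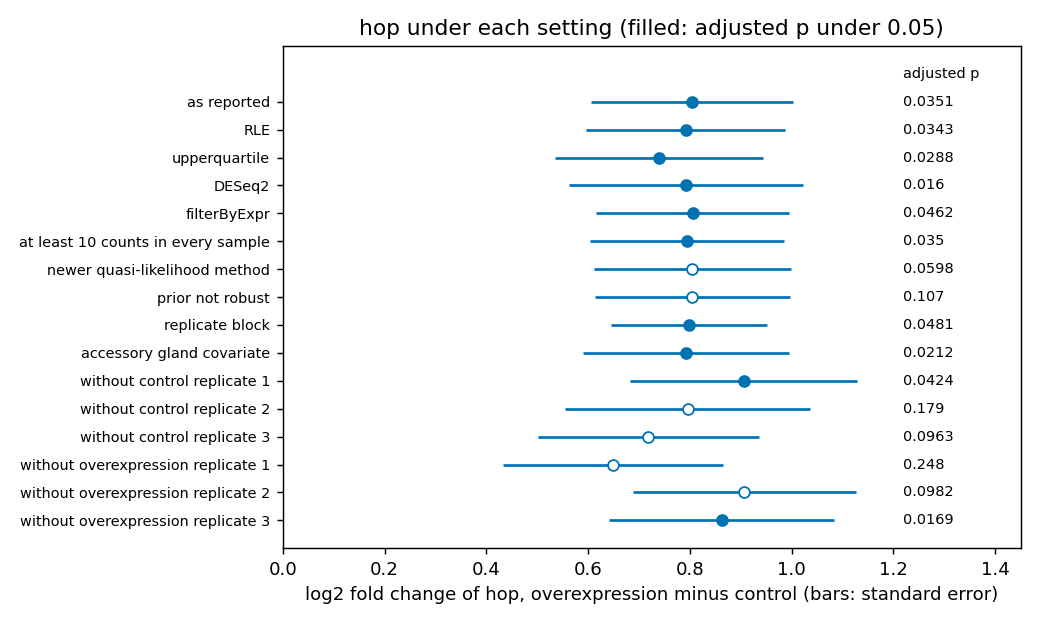
Log2 fold change of hop (overexpression minus control, bars are the standard error) under 16 settings, with the adjusted p at the right. Filled points passed an adjusted p of 0.05. All values lie between 0.65 and 0.91, and 6 of the 15 alternatives are open points.

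With the accessory gland level as a covariate, the log2 fold change of hop was 0.79 (adjusted p = 0.0212 from edgeR). The summed levels of the muscle list and of the spermatocyte and spermatid list were lower under overexpression. Of the 8 genes of the latter list, 3 had positive log2 fold changes (aly, sa and fzo). The part of both lists in the result was not tested.

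Ratios of counts within a library are free of library scaling. The ratio of hop to Stat92E counts was 0.241, 0.220 and 0.220 in the control libraries, and 0.358, 0.344 and 0.383 under overexpression. The ratio of hop to dome was 0.333, 0.309 and 0.194 in the control, and 0.381, 0.356 and 0.433 under overexpression. For both ratios, and for that of hop to Socs36E, the groups did not overlap. These ratios share the counts of hop and were chosen after its values were seen, so they are not separate results. The exact two-sided permutation test gave p = 0.1 for each (n = 3 per group), which is the smallest value this design allows (0.15 after adjustment over the 6 ratios compared).

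**Figure D3:**
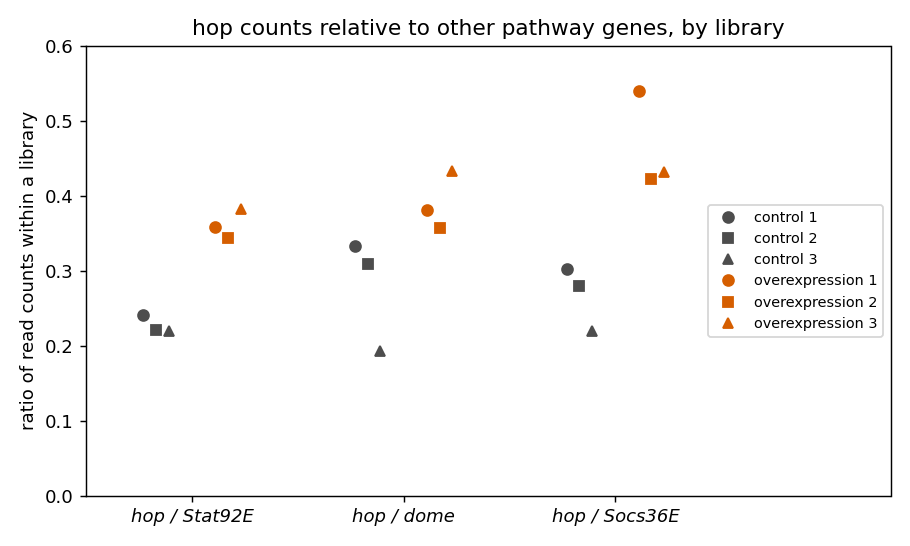
Ratio of hop counts to the counts of Stat92E, dome and Socs36E within each of the 6 libraries. Each point is 1 library. The ratio to Stat92E is 0.220 to 0.241 in the control and 0.344 to 0.383 under overexpression.

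The position of hop was examined as well, after its values were seen. Its nearest neighbours that passed the filter were Tim8 at 346 bases and dlg1 at 1566 bases on the right, and dsh at 2205 bases and CG1737 at 5390 bases on the left. Their log2 fold changes were -0.23, -0.02, 0.11 and 0.44, with edgeR adjusted p-values of 0.503, 1, 0.884 and 0.429. None of the 4 neighbours passed the test. On the X chromosome, 20 of 1840 genes above the filter were called (1.09%), and hop was 1 of 18 that were higher. On the autosomes, 453 of 10380 were called (4.36%), 200 of them higher. The median log2 fold change was 0.09 on the X chromosome and -0.002 on the autosomes, and the chromosomes were not compared by a test. No exon of hop overlapped that of another counted gene.

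The transcription factor gene Stat92E (FBgn0016917, chromosome 3R, 20535323 to 20552311, minus strand) had 32.4, 30.8 and 27.4 CPM in the control libraries, and 40.4, 30.6 and 28.8 CPM under overexpression. Overexpression replicate 1 stood above the rest, and the remaining overexpression libraries lay within the control range. The log2 fold change was 0.14 (SE 0.169, adjusted p = 0.828 from edgeR), with a 95% interval of 0.861-fold to 1.41-fold. Counts give the RNA of Stat92E and hold no measure of its phosphorylation.

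The feedback inhibitor gene Socs36E (FBgn0041184, chromosome 2L, 18138675 to 18152417, minus strand) is a direct transcriptional target of Stat92E and is widely used as a readout of the pathway. It had 25.8, 24.3 and 27.4 CPM in the control libraries, and 26.8, 24.9 and 25.5 CPM under overexpression. Its highest value was 1.13 times its lowest, the narrowest range of the 10 genes. The means were 25.8 ± 1.55 CPM and 25.7 ± 0.978 CPM (SD, n = 3 each), and the log2 fold change was -0.01 (SE 0.154, adjusted p = 1 from edgeR) with a 95% interval of -0.33 to 0.32.

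The phosphatase gene Ptp61F (FBgn0267487, chromosome 3L, 1342493 to 1475257, minus strand) encodes a tyrosine phosphatase that acts on Hopscotch and Stat92E. It was the most abundant of the 10 genes, with 121, 131 and 141 CPM in the control libraries, and 161, 126 and 127 CPM under overexpression. The groups overlapped, and the log2 fold change was 0.08 (SE 0.141, adjusted p = 0.938 from edgeR). Without TMM scaling its groups did not overlap, with 126 CPM in the control and 144 CPM under overexpression on average. The TMM factors were 0.920 to 1.01 in the control and 1.03 to 1.05 under overexpression. Leaving them out therefore raises every gene under overexpression relative to the control. The share of all genes without overlap on that scale was not determined, so the separation is not read as a rise of Ptp61F.

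The transcription factor genes zfh1 and chinmo are targets that maintain cyst stem cells. The gene zfh1 (FBgn0004606, chromosome 3R, 30765926 to 30789202, plus strand) had 9.77, 9.51 and 8.47 CPM in the control libraries, and 15.2, 9.38 and 9.83 CPM under overexpression. Its higher mean under overexpression rested on replicate 1, as the fold change on the log2 scale was 0.31 with all libraries (SE 0.207, adjusted p = 0.557 from edgeR) and 0.05 without that replicate. An antisense RNA, asRNA:CR45189, shares 4.56% of the exon bases of zfh1, and since the strand setting of the counting is not stated, reads of the pair cannot be told apart.

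The gene chinmo (FBgn0086758, chromosome 2L, 1651258 to 1704682, plus strand) had 78.8, 79.6 and 97.9 CPM in the control libraries, and 121, 96.6 and 107 CPM under overexpression. Control replicate 3 lay just above overexpression replicate 2. The log2 fold change was 0.34 (SE 0.146) with an unadjusted p of 0.0320, and it did not pass the edgeR test after adjustment (adjusted p = 0.278, and 0.183 to 0.702 over the alternatives). Without TMM scaling the groups did not overlap, at 82.0 ± 7.20 CPM and 112 ± 13.7 CPM (SD, n = 3 each). As for Ptp61F, that scale raises every gene under overexpression relative to the control, and the share of all genes was not determined. The ratio of chinmo to zfh1 counts was 8.06 to 11.6 in the control and 7.94 to 10.9 under overexpression, with overlap. That of chinmo to Socs36E was 3.05 to 3.57 and 3.88 to 4.51, without overlap (exact two-sided permutation p = 0.1, n = 3 per group, the smallest value possible).

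Overexpression replicate 1 held the highest value of 6 of the 10 genes, namely dome, hop, Stat92E, Ptp61F, zfh1 and chinmo. Among all genes that passed the filter, 23.3% had their highest value in that library. The remaining overexpression replicates held the highest value of 0 of the 10. Without overexpression replicate 1, the median log2 fold change of the 10 genes was 0.02, beside 0.02 for all genes that passed the filter, and 5 of the 10 were positive.

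A list of 16 other regulators of the pathway was examined beside the 10 genes, all of which passed the filter. The gene dlp was the 1 called (higher), and 0 were called lower by edgeR or DESeq2, while 4 had an unadjusted p under 0.05, all higher. Among all genes tested 2.81% were called and 14.7% had such an unadjusted p, and 1 call among 16 genes is too few to be read as a share. The list's median log2 fold change was 0.11. The gene dlp encodes Dally-like, a glypican of the cell surface that binds secreted ligands. It had 13.5, 14.3 and 14.7 CPM in the control libraries, and 21.2, 24.4 and 20.6 CPM under overexpression. It rose by a log2 fold change of 0.64 (SE 0.162, adjusted p = 0.0414 from edgeR) without overlap between the groups. The call was lost in 5 of the 6 fits that left out a library, all but that without overexpression replicate 3, with edgeR adjusted p-values of 0.0619 to 0.209. It was also lost with upper-quartile factors, the newer method, the prior that was not robust and the replicate block.

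The related glypican gene dally had 3.96 to 6.59 CPM and a log2 fold change of -0.29 (SE 0.228, adjusted p = 0.647 from edgeR). Stam encodes an endosomal adaptor that sorts receptors together with Hrs. It had 32.7, 34.0 and 32.7 CPM in the control and 59.7, 47.1 and 40.2 CPM under overexpression, without overlap, and its log2 fold change of 0.56 did not pass (adjusted p = 0.0822 from edgeR). It passed with DESeq2 (adjusted p = 0.0397) and without overexpression replicate 3 (adjusted p = 0.0115 from edgeR). Its partner Hrs had one of -0.24 (adjusted p = 0.594 from edgeR).

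Among the inhibitors, Su(var)2-10, which encodes the fly PIAS protein, had 82.8 to 119 CPM and a log2 fold change of 0.01. The short receptor gene et, whose product opposes Domeless, had one of -0.14, and Socs44A one of 0.32. Those of Socs16D, a relative of Socs36E, and ken, which encodes a repressor of some Stat92E targets, were 0.21 and -0.04. None of these 5 genes passed the test, with edgeR adjusted p-values of 0.514 to 1.

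**Figure D4:**
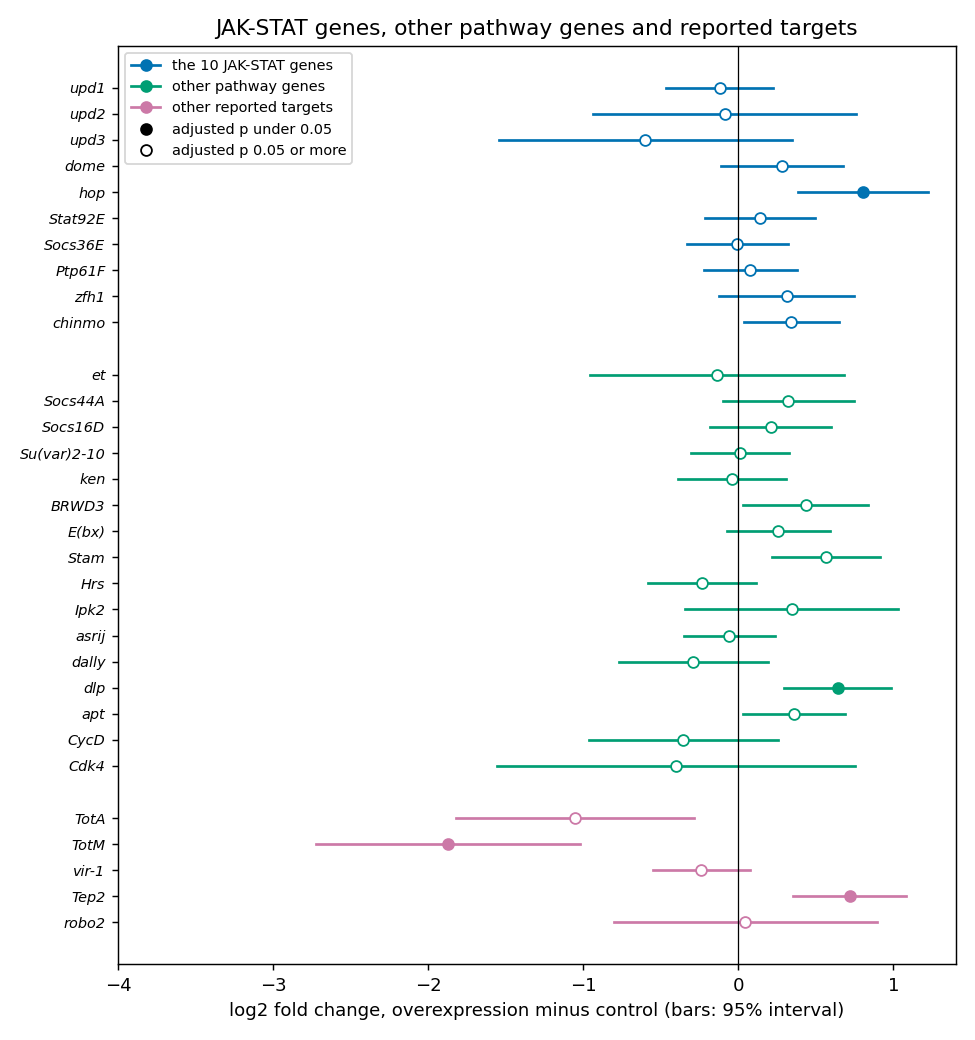
Log2 fold change (overexpression minus control) with its 95% interval for the 10 JAK-STAT genes, 16 other regulators and 5 further target genes that passed the filter. Filled points passed an adjusted p of 0.05. These are hop, dlp and Tep2 on the higher side and TotM on the lower.

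Of 13 genes listed as transcriptional targets of the pathway, 5 of which are among the 10 genes, 10 passed the filter. Of the 13, 1 rose and 1 fell, beside 1.29% of all genes tested that were called higher and 1.51% lower. Tep2 encodes a secreted thioester protein of immunity and shares 95 exon bases with CG43235. It had 21.8, 19.9 and 15.6 CPM in the control libraries, and 32.6, 27.5 and 34.0 CPM under overexpression. It rose by a log2 fold change of 0.72 (SE 0.173, adjusted p = 0.0312 from edgeR), and the call was lost without control replicate 2 (adjusted p = 0.135), overexpression replicate 1 (0.116), control replicate 3 (0.103) or overexpression replicate 2 (0.0697), and with the newer method (0.0540) and the prior that was not robust (0.105). TotM encodes a Turandot peptide, a stress protein secreted into the hemolymph. It had 2.91, 2.11 and 1.23 CPM in the control libraries, and 0.655, 0.592 and 0.453 CPM under overexpression. These levels stood on 158 counts over the 6 libraries together, beside 144 for upd2 and 113 for upd3. TotM fell, with a log2 fold change of -1.87 (SE 0.404, adjusted p = 0.0148 from edgeR), and the call was lost without overexpression replicate 2 (adjusted p = 0.111), control replicate 1 (0.101), control replicate 2 (0.0825) or overexpression replicate 1 (0.0635), and with the prior that was not robust (0.0730). Markers of the fat body were read beside TotM. Of 9 counted, 7 passed the filter, and 6 of the 7 had negative log2 fold changes with a median of -0.54. Among all genes that passed the filter, 51.6% were positive. Of the fat body markers, 0 were called with edgeR or had an unadjusted p under 0.05. Their summed level was 158, 129 and 86.4 CPM in the control and 83.8, 113 and 91.5 CPM under overexpression, with overlap. Fbp1, a receptor for larval serum proteins, had 37.7, 20.1 and 7.54 CPM in the control, in the same order over the libraries as TotM. Under overexpression Fbp1 had 4.278, 6.879 and 7.497 CPM, in the reverse order of TotM. The means of Fbp1 were 21.8 ± 15.2 CPM in the control and 6.22 ± 1.71 CPM under overexpression (SD, n = 3 each). Its groups did not overlap, and its log2 fold change was -1.81 (SE 0.687, adjusted p = 0.354 from edgeR). Yp1 and Yp2 had at most 0.140 CPM and 0.384 CPM. The part of the fat body markers in the fall of TotM was not tested.

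The called targets thus moved in opposite directions, and the median log2 fold change of the 10 that passed the filter was 0.06. TotA, a relative of TotM, had 2.21 to 4.72 CPM in the control and 1.16 to 2.28 CPM under overexpression, with an unadjusted p of 0.0102 and an edgeR adjusted p of 0.158. The listed target gene vir-1 had 80.2 to 118 CPM and a log2 fold change of -0.24 (adjusted p = 0.512 from edgeR). Tep1, TotC and TotX did not pass the filter, and each had at most 0.617 CPM.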

How the data were processed

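RNA of testes was sequenced from 3 samples per group. Per the paper and the submitters' processing notes, the authors trimmed the reads with cutadapt, aligned them with STAR to dm6 and counted them per gene with featureCounts, and they deposited raw counts. Their table of the comparison and a table with 6 columns of per-sample values were left aside, and 0 rows of the count files named no gene. The test across all 17559 genes used edgeR 4.0.16 under R 4.3.3 (TMM, quasi-likelihood test with the older method, robust prior, no filter on low counts, condition as the term, Benjamini-Hochberg adjusted p under 0.05). The standard error was the log2 fold change divided by the square root of F, and 95% intervals used the test's degrees of freedom. Gene models came from Ensembl release 115, which held 17253 of the genes, while the deposited counts rest on an earlier annotation of that assembly. No library was a copy of another (chi-square of 28.0 or more per degree of freedom in each of 15 pairs). The procedure was tested on simulated data.

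The 10 genes and all lists were chosen with earlier results of these data known. The genes named were the 10 genes, the called genes of each list and otherwise up to 3 genes of the highest level, and those named beyond this, such as dally, Stam, Hrs and the inhibitors, were chosen after their values were seen. The ratios of counts, the neighbours of hop and the count of highest libraries were also chosen after seeing the data. The alternatives were the RLE and upper-quartile factors of edgeR, DESeq2 1.42.0, a filter by filterByExpr or by 10 counts in each sample, edgeR's newer quasi-likelihood method, a non-robust prior, a replicate block, an accessory gland covariate, each replicate left out in turn, and CPM without TMM. Matches of the miR-2 seed and of promoter motifs were not analysed here.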

Additional observations from a re-analysis of the deposited data

How the results depend on the processing

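The 10 genes gave 149 values over 15 alternatives, of which 143 kept their side of the threshold and 6 lost it, all of hop. Called genes numbered 493, and 742 with DESeq2, 236 with a prior that is not robust and 744 with the accessory gland covariate. When 1 library was left out they numbered 205 at the lowest (overexpression replicate 2 left out) and 923 at the highest (overexpression replicate 3 left out). Of the 10 genes, 0 were called with the newer quasi-likelihood method of edgeR or with the prior that is not robust (2 at an unadjusted p under 0.05 in each), and 0 to 1 without 1 library. Of the 16 other regulators, 1 was called, 2 with DESeq2, and 0 with upper-quartile factors, the newer method, the prior that is not robust and the replicate block (2, 4, 3 and 4 at an unadjusted p under 0.05). It was 0 to 2 without 1 library. Of the 13 targets, 2 were called, 1 with the newer method, 0 with the prior that is not robust and with the block (4 unadjusted in each), and 0 to 2 without 1 library. The cause was not tested.

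With the replicate block, 349 genes were called in all, and hop had a log2 fold change of 0.80 (edgeR adjusted p = 0.0481). The genes dlp (edgeR adjusted p = 0.0623), Tep2 (0.0742) and TotM (0.0505) lost their calls. Deviations of same-numbered libraries correlated at -0.61, 0.42 and 0.54 across genes, so the numbers were not taken as pairs. With upper-quartile factors 223 genes were called higher and 414 lower, against 227 and 266 with TMM. Mean levels without TMM moved by less than 1 SD in 19 of 20 cases, and for Socs36E under overexpression the mean was 26.7 CPM. Depth limits upd2 and upd3, with 9 to 40 counts per library, and TotM, with 158 counts over the 6 libraries together.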

Other observations

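Genes that mark the cells around the niche were measured in the same libraries. Of 6 hub genes counted, 0 were called with edgeR and 0 had an unadjusted p under 0.05. Fas3, an adhesion protein of hub cells, had 23.2 to 28.6 CPM in the control and 28.6 to 35.4 CPM under overexpression, with a log2 fold change of 0.31 (edgeR adjusted p = 0.395). CadN had one of -0.28, Cad99C one of -0.07 and hh one of -0.23, with no overlap between the groups for hh. The largest change of the list was that of shg, at 0.37 (edgeR adjusted p = 0.361), and 2 of the 6 genes were positive. The summed level of the hub list was 99.0 to 121 CPM in the control and 104 to 118 CPM under overexpression.

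Of 7 cyst lineage genes, 0 were called with edgeR and 1 had an unadjusted p under 0.05. This was tj, a factor of early cyst cells, with 0.117 to 0.659 CPM in the control and 0.976 to 1.27 CPM under overexpression (edgeR adjusted p = 0.228). The late cyst cell gene eya had a log2 fold change of 0.07. Of 5 early germline genes counted, 0 were called with edgeR and 2 had an unadjusted p under 0.05, piwi and zpg. Their log2 fold changes were 0.77 and 0.96 (edgeR adjusted p = 0.183 and 0.207). In the control piwi had 1.99 to 3.46 CPM and zpg 0.701 to 2.06 CPM. Under overexpression these were 3.49 to 5.67 CPM and 2.13 to 3.51 CPM. The more abundant stai and bgcn had log2 fold changes of -0.04 and 0.01, and bam one of 0.27. The summed level of the early germline list was 233 to 271 CPM in the control and 211 to 280 CPM under overexpression, with overlap. Most of this sum came from stai and bgcn, so it says little about piwi and zpg, whose groups did not overlap. Log2 fold changes were positive for 4 of the 5 early germline genes and 6 of the 7 cyst lineage genes. Among all genes that passed the filter, 51.6% were positive.

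Genes whose level followed that of a JAK-STAT gene most closely over the 6 libraries were listed as a description, since all genes share the depth and makeup of these libraries. For Stat92E these were TfIIEalpha, TH1 and retm (Pearson r = 0.998, 0.989 and 0.984 of log2 CPM, n = 6 libraries), and 133 genes had an r above 0.9. For Socs36E they were TBC1D16, MED23 and TwdlW (r = 0.962, 0.953 and 0.948, n = 6 libraries), and 18 genes had an r above 0.9.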
